A study of Mus musculus with 6 samples.

Results

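Replication-dependent histone genes encode the linker histone H1 and the core histones H2A, H2B, H3 and H4 that pack newly copied DNA. They were taken as every gene whose symbol begins with Hist1h, Hist2h, Hist3h or Hist4h, which gave 67 of the 32285 genes in the count tables. Of these, 6 encode H1, 18 H2A, 18 H2B, 12 H3 and 13 H4. In the mm10 mouse genome 54 lie in the Hist1 cluster on chromosome 13 between positions 21715763 and 23934851, 10 on chromosome 3, 2 on chromosome 11 and 1 on chromosome 6.

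As general background, these genes are switched on together when a cell enters S phase, through the coactivator NPAT, and their mRNAs are destroyed soon after DNA synthesis stops. Their mRNAs are the main animal mRNAs without a poly(A) tail. They end in a conserved stem-loop, which is bound by the stem-loop-binding protein SLBP and cut downstream by a machinery that includes the U7 snRNP proteins LSM10 and LSM11. Some members also make polyadenylated transcripts, which are known from cells that have stopped dividing. Droplet kits of the type used here prime on poly(A), so the counts below are of captured transcripts only.

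The libraries came from colons of transplanted mice, and each of the 6 groups was 1 library. BM mice received bone marrow alone and GVHD mice bone marrow with spleen cells, a graft in which donor T cells attack the host (graft-versus-host disease). From both, donor CD11b+ CD64+ macrophages were sorted. Such macrophages were also sorted from wild-type (WT) and IL-34-/- recipients, and donor T cells from both of the latter, to ask how interleukin 34, a ligand of the CSF1R receptor of macrophages, acts on macrophages and T cells. Donor genotype, strain, age and number of mice, pooling, and whether the WT and IL-34-/- recipients received spleen cells are not stated in the labels. The labels name both a 5′ and a 3′ kit and do not say which library used which.

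The libraries held 4169 to 18360 barcodes and 43660889 to 114425913 UMIs (unique molecular identifiers, 1 per captured transcript). Il34 was not lower where the labels say IL34-/-. It stood at 1.47, 0.482, 1.76 and 1.18 counts-per-million (CPM) over all barcodes of the BM, GVHD, WT macrophage and WT T-cell libraries, and at 2.30 and 1.55 CPM in the macrophage and T-cell libraries labelled IL34-/-. No label names the deleted part of the gene, so these libraries are called by their labels. As many as 2502 BM barcodes (42.6%) also occurred in GVHD, against 5 to 75 in common for any other pair, and these were dropped from BM. Cells were put into a myeloid, T-cell or epithelial gate by at least 3 of 10 markers of that type and at most 1 of each other type. The T-cell libraries went against their labels, with 6454 and 3718 myeloid-gated against 2494 and 1476 T-gated cells. Cells with at least 2 UMIs of the proliferation genes Mki67 and Top2a together are called cycling, and the remaining cells other.

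The end of the annotated transcript model divided the 67 members into 3 classes. A stem-loop was found in 46 models. In 23 of them the model ended under 100 bases after it, in 23 it ran further, and 21 models held none. A poly(A) signal lay in the last 50 bases of 17 models, 12 of them among those that ran past the stem-loop. Below are the last 12 bases before the stem-loop, the stem-loop in capitals and 2 bases after it, 5′ to 3′ on the sense strand, for members that the results turn on. They are shown because they differ in the run of A before the stem-loop and in how far the model continues.
Hist1h2ap: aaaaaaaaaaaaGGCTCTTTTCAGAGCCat
Hist1h2ae: aaaaaaaacaaaGGCTCTTTTCAGAGCCat
Hist1h3c: tatttaaaaaaaGGCTCTTTTAAGAGCCac
Hist1h4d: ccaaaaaccaaaGGCCCTTTTCAGGGCCac
Hist1h1c: aacaatccaaaaGGCTCTTTTCAGAGCCac
Hist3h2a: acagacaccaaaGGCTCTTTTCAGAGCCac

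In these lines the Hist1h2ap stretch lies at chr13:21833027-21833056 on the minus strand, Hist1h2ae at chr13:23570666-23570695 minus, Hist1h3c at chr13:23745045-23745074 minus, Hist1h4d at chr13:23581938-23581967 plus, Hist1h1c at chr13:23739500-23739529 plus and Hist3h2a at chr11:58955160-58955189 plus. All were read from transcript models of the mm10 assembly. The model ended 3 bases after the stem-loop in Hist1h2ap and 74 bases after it in Hist1h3c. It ran on for 151 bases in Hist1h2ae, 770 in Hist1h4d, 840 in Hist1h1c and 1643 in Hist3h2a. The 12 bases before the stem-loop were all A in Hist1h2ap, and held 11 A in Hist1h2ae, 8 in Hist1h1c and 7 in Hist3h2a. The stem-loop of Hist1h2ap occurred in 26 members. The form of Hist1h4d occurred in 7, all of them H4 genes, and that of Hist1h3c in 6. No stem-loop was found in the models of Hist1h1b, Hist1h1a and the spliced Hist1h2bc. Some models without one are short, with 381 bases in Hist1h2bl and Hist1h2bn, 393 in Hist1h2ai and 312 in Hist1h4k. Such a model may stop before the stem-loop, so its absence need not hold for the gene.

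Promoters were matched for 61 members in RefSeq (GRCm38.p6), as 250 bases before and 50 after the start. The letters CCAAT, searched on both strands, were in 52 of these 61 windows (85.2%), against 37.4% of 32851 promoters in that table. TATAAA was in 57.4% against 13.6%, and the octamer ATTTGCAT in 21.3% against 1.7%. All windows of H1, H2A, H2B and H3 genes held CCAAT, and 3 of 12 H4 windows did. The octamer was in 7 of 17 H2A and 6 of 16 H2B windows and in none of H1, H3 or H4. The 250 bases before the start are shown for a pair of linker histone genes that differed most in the cycling cells described below, with CCAAT (or its reverse, ATTGG) and TATAAA in capitals.
Hist1h1b: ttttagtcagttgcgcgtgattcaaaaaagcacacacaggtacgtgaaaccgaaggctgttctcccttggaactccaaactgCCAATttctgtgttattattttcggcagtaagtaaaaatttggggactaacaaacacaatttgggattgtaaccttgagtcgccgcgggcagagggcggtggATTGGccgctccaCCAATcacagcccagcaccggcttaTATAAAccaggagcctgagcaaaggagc
Hist1h1c: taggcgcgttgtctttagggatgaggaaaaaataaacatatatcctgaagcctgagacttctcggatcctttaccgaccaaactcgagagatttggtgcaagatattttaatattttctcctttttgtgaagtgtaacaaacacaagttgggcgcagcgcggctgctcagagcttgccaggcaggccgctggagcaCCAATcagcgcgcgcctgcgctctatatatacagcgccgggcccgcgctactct

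The Hist1h1b stretch is chr13:21780626-21780875 on the minus strand, with CCAAT letters 168 and 53 bases before the start, the reverse 66 bases before it, and TATAAA 28 bases before it. That of Hist1h1c is chr13:23738557-23738806 on the plus strand, with CCAAT 54 bases before the start and no TATAAA. A match is only a run of letters, and no binding was measured.

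Over all barcodes the members gave 232115 UMIs, 0.0296% to 0.061% of a library's UMIs, of which 83775 were in gated cells. The largest totals were those of Hist1h2bc (42138 UMIs), Hist1h2ap (31853) and Hist1h1c (26918), and 30 members with over 1000 UMIs each held 93.7% of all. Hist1h2ba, a testis histone, had 0 of 513588565 UMIs, which allows a level of up to 0.00584 CPM, and Hist1h2aa had 1. Another 3 members, Hist2h2aa2, Hist1h2bq and Hist1h1t, had 13 to 20. Many copies are nearly identical: 27 members had under 50% of their 90-base stretches to themselves, and Hist1h2ap had 7.6%, shared with 19 genes. How its UMIs were split among copies is therefore uncertain. On the same strand 7 members overlap another gene, among them Hist1h2be, whose model overlaps that of Hist1h1e in part. Levels below are the CPM of a class, from its own total, not divided by transcript length, so an order between genes is one of UMIs. Brackets after a level or ratio hold its 95% interval, which covers counting error only.

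In all 6 libraries the summed histone level was higher in cycling than in other myeloid cells, and the gap was larger in T cells. Values are given in the order BM, GVHD, WT and IL34-/- macrophage library, then WT and IL34-/- T-cell library. In cycling myeloid cells the sum was 456, 294, 276, 446, 519 and 310 CPM, and in other myeloid cells 198, 173, 140, 157, 140 and 155 CPM. The ranges of the 6 libraries did not overlap. Neutrophil markers were at 25.2 to 2344 CPM in cycling and 1.82 to 6357 CPM in other myeloid cells, and their part was not tested. In cycling T cells it was 1776, 2792, 396, 2787, 3562 and 2636 CPM, and in other T cells 313, 345, 331, 451, 358 and 338 CPM. Cycling T cells of the WT macrophage library, 10 cells, stood apart from the other 5 libraries, and their ratio to other T cells of 1.20 (0.803 to 1.74) did not differ beyond counting error. In the other 5 libraries the ratio was 5.67 to 9.95 in T cells, against 1.70 to 3.71 in myeloid cells of all 6.

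Epithelial cells had the highest level outside the cycle, 415 to 550 CPM in the 6 libraries. Cycling epithelial cells of the 4 libraries with at least 10 of them were at 1380, 1779, 1246 and 982 CPM (WT and IL34-/- macrophage, WT and IL34-/- T-cell library), 2.16 to 3.82 times the other cells. The 6 cycling epithelial cells of GVHD were at 453 CPM, 0.823 times the other cells, and BM had none. Cycling cells were also deeper, with a median of 8226 to 21374 UMIs against 6304 to 12148 in myeloid cells and 5372 to 8752 against 2438 to 5520 in T cells.

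**Figure D1:**
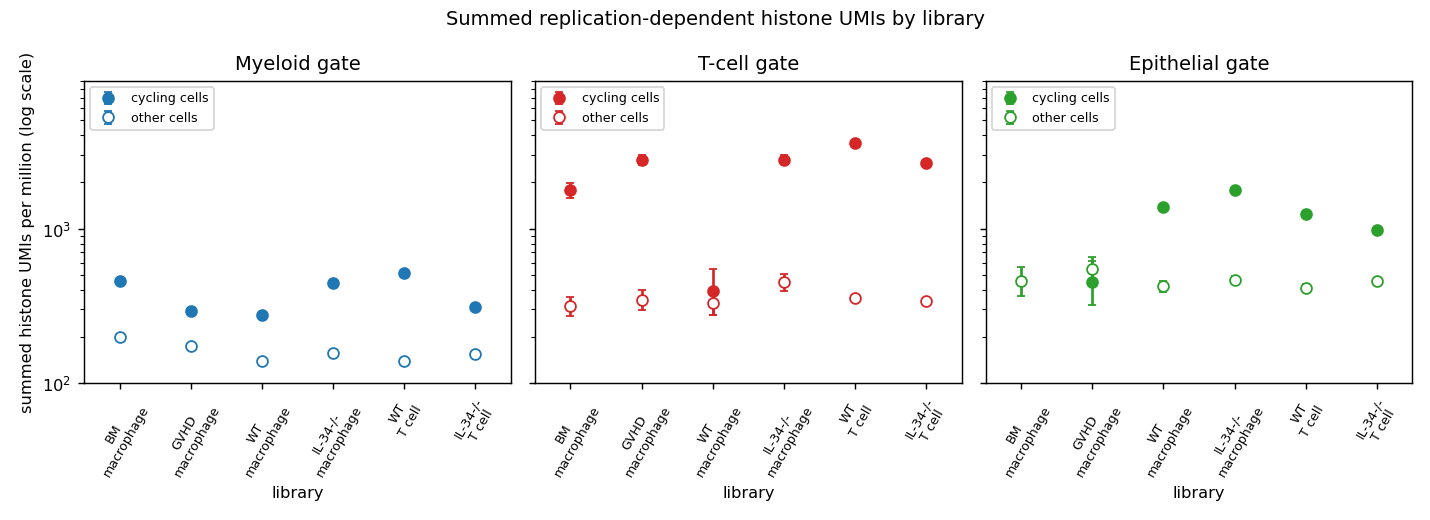
Summed level of the 67 histone genes in CPM (log scale) in each library, for cycling (filled) and other (open) cells of the 3 gates, with 95% Poisson intervals that cover counting error only. Filled points lie above open ones in all 6 libraries of the myeloid gate, and in the T-cell gate all but the WT macrophage library (10 cycling cells) have cycling cells at 1776 CPM or more.

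The level depended on how many Mki67 and Top2a UMIs were asked for. With cells thinned to 2000 UMIs each before the same rule was applied, cycling myeloid cells stood at 723 to 1401 CPM and other myeloid cells at 154 to 207. Cycling T cells of the 4 libraries that kept 10 of them then stood at 3604 to 4737 CPM, and other T cells of the 6 libraries at 230 to 496. Medians over these libraries were then 1008 against 166 CPM in myeloid and 4235 against 420 CPM in T cells. With the cells of all libraries pooled, myeloid cells with 0, 1, 2 to 3 and 4 to 7 Mki67 and Top2a UMIs had 158, 155, 151 and 184 histone CPM, and those with 8 to 15 and 16 or more had 500 and 1461. Of the 4476 cycling myeloid cells 2607 held only 2 to 3 such UMIs. The libraries differed: at 4 to 7 UMIs the WT T-cell library had 304 CPM (283 to 326) in myeloid cells and the other 5 had 146 to 177, and at 8 to 15 UMIs the 6 libraries ran from 221 to 1626. Pooled T cells went from 340 CPM at 0 and 697 at 2 to 3 to 2249 at 4 to 7 and 4693 at 16 or more. Epithelial cells went from 421 to 2179 CPM.

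Histone UMIs were concentrated in few cells. The tenth of cycling myeloid cells with most histone UMIs held 67.7% of them, against 38.2% in T and 46.2% in epithelial cells. The median cycling cell held 1 histone UMI in the myeloid, 7 in the T-cell and 11 in the epithelial gate. At least 50 were found in 105, 92 and 80 cells of these gates.

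**Figure D2:**
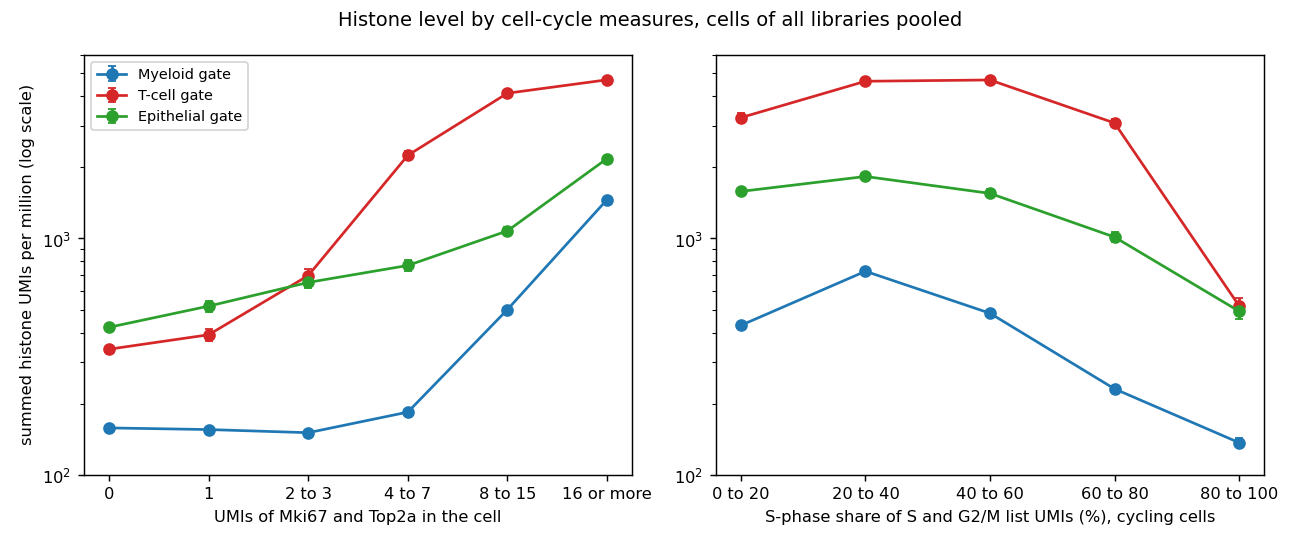
Summed histone CPM (log scale), cells of all libraries pooled, by UMIs of Mki67 and Top2a in the cell (left) and, in cycling cells, by the share of S-phase list UMIs among S-phase and G2/M list UMIs in percent (right), with 95% Poisson intervals. Pooled myeloid cells stay between 151 and 184 CPM up to 7 UMIs, though those of the WT T-cell library reach 304 CPM at 4 to 7, and in all 3 gates the lowest level on the right is in cells with an S-phase share of 80 to 100%.

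Among linker histones, Hist1h1b (H1.5; chr13:21779883-21780625, minus strand) separated the classes most. In cycling myeloid cells it stood at 41.6, 17.9, 20.4, 38.4, 59.4 and 52.6 CPM, against a mean of 1.51 CPM in other myeloid cells. No library of the other class reached the lowest of the cycling class. It rose by 4.62 ± 0.159 on the log2 scale (SE, 6 libraries; 24.5-fold; adjusted p = 4.77e-09, edgeR's quasi-likelihood test paired by library). In T cells it was at 248, 477, 11, 336, 556 and 686 CPM in cycling and 3.88 to 23.3 in other cells (4.88 ± 0.21, adjusted p = 7.7e-15, edgeR), and in epithelial cells it rose by 3.98 ± 0.145 over 4 libraries (adjusted p = 2.17e-09, edgeR). Only the WT macrophage library had T cells with less Hist1h1b in the cycling class, on 10 cells.

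Hist1h1c (H1.2; chr13:23738808-23740367, plus strand), another abundant linker histone, behaved differently. In cycling myeloid cells it was at 60.6, 57.8, 43.8, 35.8, 38.2 and 47.7 CPM and in other myeloid cells at 53.4, 43.3, 41.5, 38.4, 36.3 and 41.7 CPM. These ranges overlap, and the log2 ratio was 0.11 ± 0.065 (adjusted p = 0.339, edgeR). In T cells it rose by 0.91 ± 0.139 (adjusted p = 2.46e-05, edgeR), and in epithelial cells the ratio of 0.17 did not pass (adjusted p = 0.152, edgeR). Hist1h1e (H1.4) lay between, with a rise of 1.56 in myeloid and 2.05 in T cells on the log2 scale. Hist1h1a, less abundant, rose by 3.60 and Hist1h1d by 1.72 in myeloid cells, so 4 of the 5 H1 genes tested rose there.

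Among H2A genes, Hist1h2ap (chr13:21833026-21833507, minus strand) was at 37.9, 9.07, 46.1, 117, 111 and 9.51 CPM in cycling myeloid cells and at 1.65, 0.644, 4.04, 8.17, 3.71 and 0.563 CPM in other myeloid cells. It was high in 4 libraries and low in GVHD and the T-cell library labelled IL34-/-, yet within each library cycling cells had more. The rise was 4.13 ± 0.157 on the log2 scale (17.6-fold; adjusted p = 1.01e-08, edgeR), with 4.61 ± 0.221 in T and 4.48 ± 0.131 in epithelial cells. Hist1h2ae (chr13:23570517-23571220, minus strand) was at 40.7, 9.12, 23.0, 35.8, 59.8 and 12.4 CPM in cycling myeloid cells and rose by 3.75 ± 0.211 (adjusted p = 1.93e-07, edgeR). Hist1h2ab and Hist1h2ak, at lower levels, rose by 4.34 and 3.99.

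Hist3h2a (chr11:58954685-58956830, plus strand), an H2A gene away from the main cluster whose locus overlaps Trim17, was the only member that fell. It was at 15.2, 14.7, 9.44, 11.1, 10.5 and 13.5 CPM in cycling and 19.1, 17.5, 13.7, 13.1, 13.1 and 19.8 CPM in other myeloid cells. Each library had less in cycling cells, and the log2 ratio was −0.41 ± 0.067 (adjusted p = 0.00196, edgeR). With cells thinned to 2000 UMIs no member was lower.

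Hist1h2bc (chr13:23684199-23692908, plus strand) led the H2B genes and, by its mean level over the libraries, all members in other myeloid cells, although Hist1h1c was above it in the WT and IL34-/- macrophage libraries (41.5 against 31.3 and 38.4 against 31.8 CPM). It was at 82.4, 86.9, 36.7, 38.1, 50.2 and 58.0 CPM in cycling and 60.3, 62.5, 31.3, 31.8, 39.4 and 51.9 CPM in other myeloid cells, a rise of only 0.29 ± 0.053 (adjusted p = 0.00406, edgeR). It did not pass with the stricter gate (0.21, adjusted p = 0.289) or with cycling set at 1 UMI (0.18, adjusted p = 0.156, edgeR). In T cells the same gene was at 177, 235, 22, 60.1, 146 and 110 CPM in cycling and 31.5, 46.5, 18.1, 14.4, 25.2 and 27.6 CPM in other cells, a rise of 2.26 ± 0.132 (adjusted p = 2.21e-12, edgeR). In epithelial cells it was at 163 to 328 CPM outside the cycle and did not pass (log2 ratio −0.00 ± 0.092, adjusted p = 0.991, edgeR). Of the other H2B genes, Hist1h2bb rose by 3.48 in myeloid cells and Hist1h2bm by 4.04 in epithelial cells.

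H3 and H4 genes gave fewer UMIs. Hist1h3c was at 6.68, 3.57, 4.15, 8.71, 9.56 and 6.34 CPM in cycling myeloid cells and rose by 4.32 (adjusted p = 1.25e-07, edgeR), and by 3.74 in epithelial cells. Hist1h4d was at 34.3, 20.3, 12.97, 27.5, 29.2 and 15.6 CPM in cycling against 10.8, 8.05, 5.09, 6.76, 4.31 and 3.57 CPM in other myeloid cells, a rise of 1.84 (adjusted p = 6.1e-06, edgeR). Hist1h4c rose by 1.04, while Hist1h4i had a ratio of −0.06 (adjusted p = 0.833, edgeR).

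**Figure D3:**
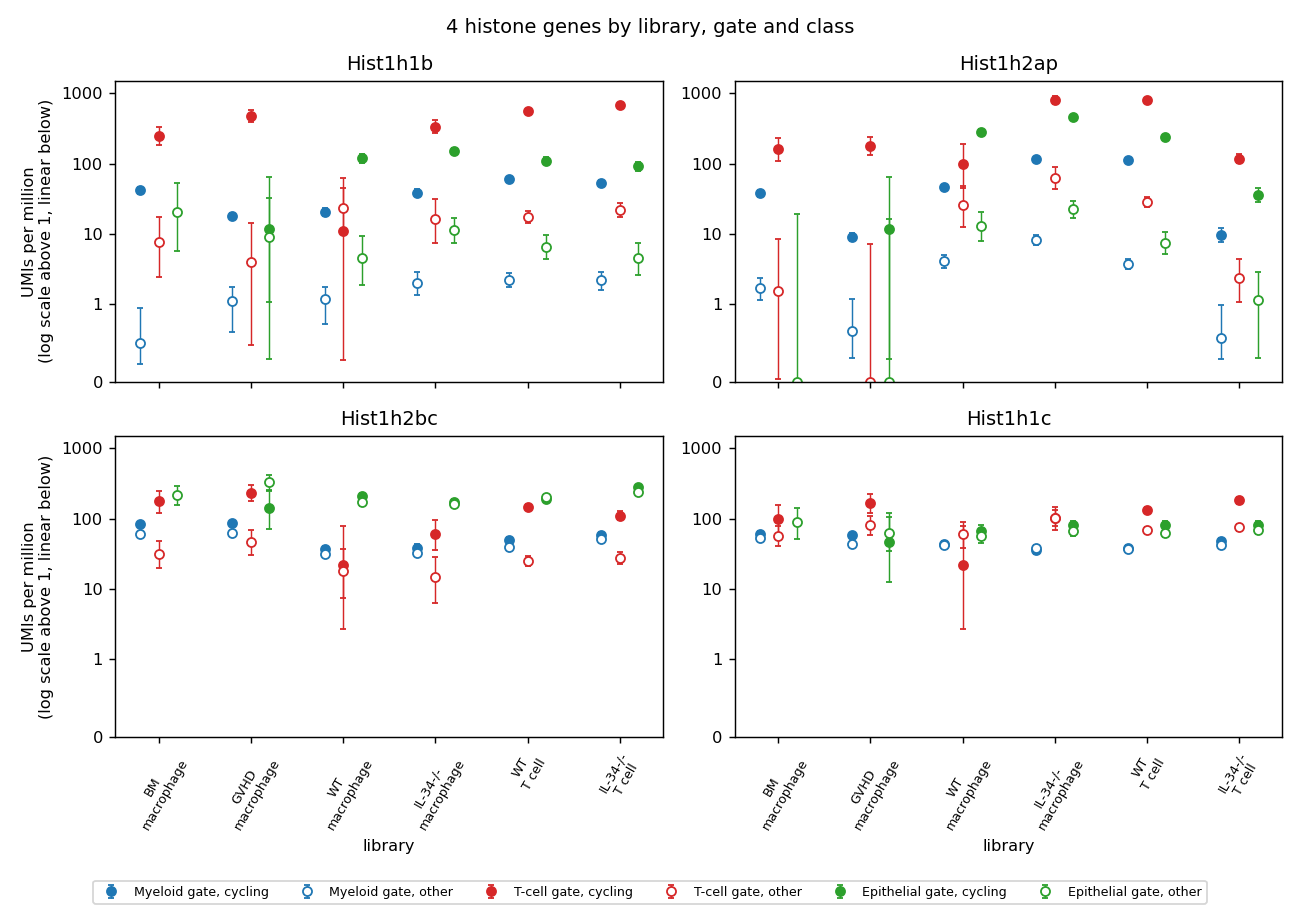
CPM of Hist1h1b, Hist1h2ap, Hist1h2bc and Hist1h1c in each library (log scale above 1, linear below), by gate (colour) and class (filled, cycling; open, other), with 95% Poisson intervals. Hist1h1b and Hist1h2ap separate cycling from other cells, and Hist1h2bc and Hist1h1c hardly do outside the T-cell gate.

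Counted over the members that passed a filter on low UMIs, 22 of 36 rose and 1 fell in cycling myeloid cells, where 6.15% of all genes tested rose and 2.70% fell. The median log2 ratio was 1.44, against −0.02 over all genes. In T cells all 9 tested members rose (15.2% of all genes, and 13.8% fell), and in epithelial cells 24 of 30 (23.1% of all genes, and 23.1% fell), with a median of 2.64 in both. Without the WT macrophage library 14 members rose in T cells. A member that passed the filter only through its cycling cells had to differ. With no filter 42 of 64, 48 of 62 and 44 of 65 rose, against 4.05%, 5.56% and 13.2% of all genes. Then 1, 0 and 0 fell, against 2.93%, 5.73% and 12.9%. By transcript end and with no filter, 18 of 23 members that end at the stem-loop rose in myeloid cells (median log2 ratio 2.21), 12 of 23 that run past it (median 0.64, 1 lower) and 12 of 18 with no stem-loop in the model (median 2.69). In T cells these were 19 of 21, 15 of 22 and 14 of 19, with medians of 3.81, 1.96 and 3.14. In epithelial cells they were 18 of 23, 15 of 23 and 11 of 19, with medians of 2.96, 1.56 and 2.98. The difference between these classes was not tested, and the last class is one of models, which may stop short of a stem-loop.

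**Figure D4:**
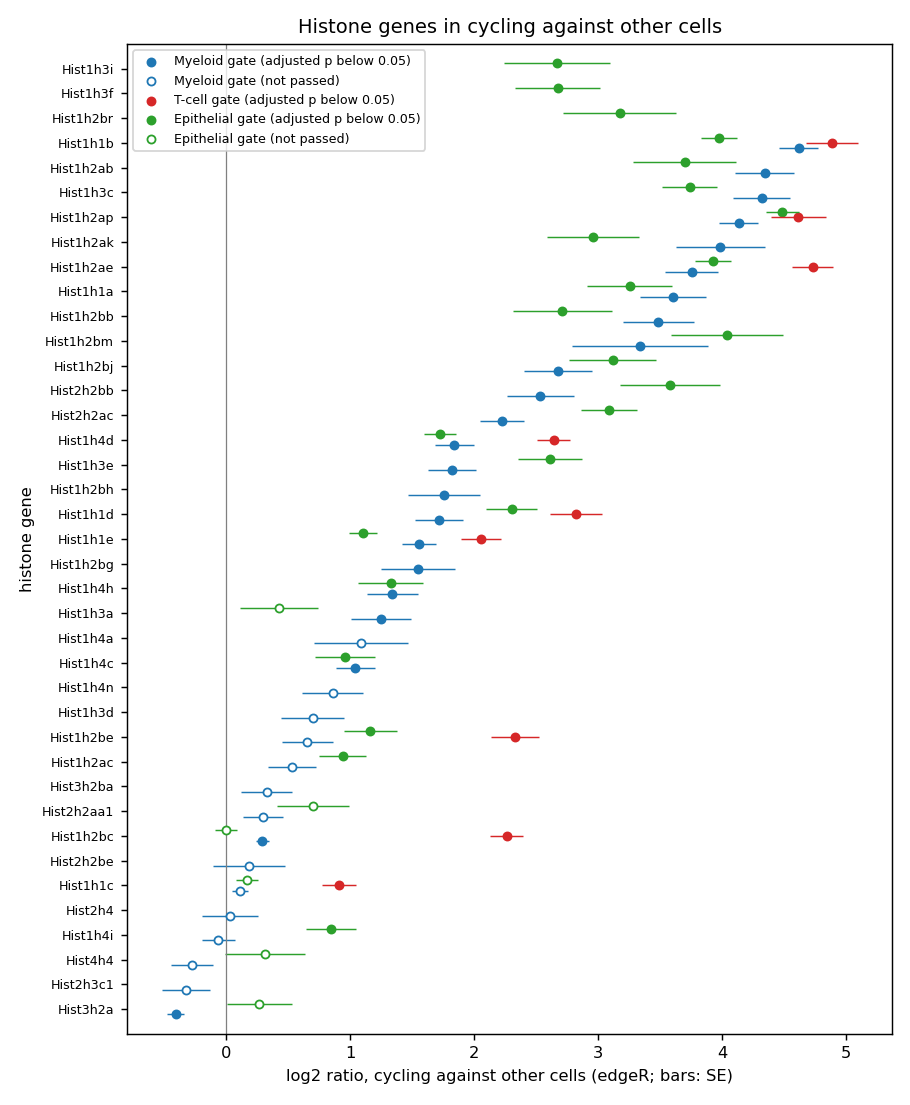
The log2 ratio of cycling to other cells for each tested histone gene with its SE (edgeR, paired by library), by gate; filled points passed an adjusted p of 0.05. The highest are Hist1h1b (4.88) and Hist1h2ae (4.73) in T cells and Hist1h1b in myeloid cells (4.62), and the lowest is Hist3h2a in myeloid cells at −0.41.

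Hist1h2bc, Hist1h1c and Hist3h2a together made up 53.1% to 73.0% of histone UMIs in other myeloid cells, 19.0% to 54.3% in cycling myeloid cells and 6.73% to 15.8% in cycling T cells. They were picked for this sum after their values were seen. Without them other myeloid cells were at 42.0 to 73.6 CPM and cycling myeloid cells at 134 to 420 CPM.

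The genes that serve histone synthesis were compared the same way. All 25 S-phase genes on a list of replication factors rose in cycling myeloid cells (median log2 ratio 1.45), led by the nucleotide reductase subunit Rrm2 (3.84), Clspn (3.24), Uhrf1 (3.19) and Cdc45 (2.21). All 25 G2/M genes rose too, with a median of 3.04 and with Hmmr (4.17), Cenpf (4.15), Ccna2 (4.04) and Kif11 (3.98) furthest. In T cells 19 of 19 and 22 of 22 tested rose, and in epithelial cells 25 of 25 of both lists.

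Of genes for histone mRNA 3′ processing and decay, 3 of 17 rose in myeloid cells (6.15% of all genes): Zfp473 (0.79), which encodes a U7 snRNP partner, the exonuclease Eri1 (0.27) and Slbp (0.20). In T cells 6 of 13 rose (15.2% of all genes), among them Eri1 (1.01), Casp8ap2 (0.85), Slbp (0.61) and Cstf2 (0.57), and Tut7, a uridylating enzyme, fell by 0.27. In epithelial cells 10 of 16 rose (23.1% of all genes), led by Lsm11 (1.30).

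Histone chaperones, which carry histones to DNA, rose in 12 of 22 cases in myeloid, 13 of 19 in T and 19 of 22 in epithelial cells (6.15%, 15.2% and 23.1% of all genes). The chaperone gene Spty2d1 fell in myeloid (log2 ratio −0.20) and T cells (−0.44), where 2.70% and 13.8% of all genes fell, and none fell in epithelial cells. Asf1b rose by 2.81 and Chaf1a, of the chromatin assembly factor CAF-1, by 1.60 in myeloid cells, Mms22l by 2.05 in T cells and Chaf1b by 2.48 in epithelial cells. Of the variants made outside replication 5 of 11, 5 of 9 and 6 of 9 rose, and 1, 0 and 1 fell. H2afx, the variant phosphorylated at DNA breaks, rose by 0.86, 2.69 and 2.35, and the centromere variant Cenpa by 0.83, 1.39 and 3.87. H2afj fell by 0.20 in myeloid cells.

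T cells of a library had a higher summed histone level in CPM than its myeloid cells, in and out of the cycle. Per cell, with libraries pooled, the median was 7 against 1 histone UMI in the cycle, and other T and other myeloid cells, which differ in depth, both had a median of 1. In cycling cells 29 of 31 tested members were higher in T cells and none was lower (29.8% of all genes higher, 34.3% lower). With no filter 49 of 64 were higher and none lower, against 15.3% and 22.1% of all genes. Hist1h1b was higher by 2.89 (adjusted p = 1.03e-06), Hist1h1d by 3.34 ± 0.244 (adjusted p = 8.36e-09) and Hist1h2ap by 2.49 on the log2 scale (edgeR). Hist1h2bm (3.48), Hist3h2ba (3.44), Hist1h2bj (3.43), Hist2h2bb (3.21) and Hist1h2br (3.16), all H2B genes, were among the 6 highest. Hist1h2bc was higher by 0.71 (adjusted p = 0.00189, edgeR), but not with DESeq2 (0.50, adjusted p = 0.0762), at 2000 UMIs per cell (0.47, adjusted p = 0.0632, edgeR), with cycling set at 1 UMI (0.16, adjusted p = 0.508) or without the WT T-cell library (0.43, adjusted p = 0.0961). Hist3h2a at 0.19 (adjusted p = 0.562, edgeR) and Hist4h4 at 0.80 (adjusted p = 0.215, edgeR) did not pass.

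Outside the cycle 18 of 23 tested members were higher in T cells and 2 lower (29.1% and 33.1% of all genes). Hist1h1b was higher by 2.89, Hist1h2bj by 2.68, Hist1h1d by 2.64, Hist1h1a by 2.57, Hist1h1e by 2.35 and Hist1h4c by 2.18, so 5 of these 6 are linker histones or H4. Hist1h1c was at 57.0, 81.4, 59.5, 103, 68.4 and 75.3 CPM in other T cells, higher by 0.42 (adjusted p = 0.0387, edgeR). This call was lost under 10 alternatives, among them DESeq2 (adjusted p = 0.0824), doublets kept (0.40, adjusted p = 0.063), 2000 UMIs per cell (0.27, adjusted p = 0.181), the stricter gate (adjusted p = 0.121), no filter (adjusted p = 0.322, edgeR) and any of 5 libraries left out. Hist1h2bc was lower in T cells by 1.17 ± 0.127 (log2 ratio −1.17, adjusted p = 3.02e-05, edgeR) and Hist3h2a had a log2 ratio of −1.28 ± 0.23 (adjusted p = 0.00087, edgeR). With no filter 25 of 65 were higher and 4 lower, against 14.4% and 21.6%.

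In the same cycling cells all 25 S-phase genes and 23 of 25 G2/M genes were higher in T than in myeloid cells, and 1 G2/M gene was lower. The medians were 1.93 and 1.91, against 2.74 for the tested histone genes and −0.04 for all genes. Of the processing genes 8 of 16 were higher, with the S-phase histone coactivator Npat at 1.98, Casp8ap2 at 1.45 and Slbp at 1.37. Lower were 2 of the 16, Lsm10 among them (log2 ratio −1.23). Variants went both ways: Cenpa (2.08), H2afx (1.74) and H2afv (1.69) were higher, and H3f3a (−1.004) and H3f3b (−0.57), which encode the replacement histone H3.3, were lower. Among chaperones 17 of 22 were higher, with Mms22l at 3.21, and 3 were lower, namely Spty2d1, Daxx and Chaf1b (29.8% and 34.3% of all genes). The rise in the cycle itself was larger in T cells for 7 of 41 tested members and smaller for none (2.77% and 0.822% of all genes, edgeR interaction term), with 2, 3 and 1 members larger without the T-cell library labelled IL34-/-, the macrophage library labelled IL34-/- and the WT T-cell library. The part of these lists in the histone difference was not tested. T-cell markers were at 4704 to 6863 CPM in the T-cell gate and at 5.38 to 18.1 in the myeloid gate. Of other cell types, fibroblast markers reached up to 1961 CPM in cycling and 1297 CPM in other T cells. Neutrophil markers, given above for myeloid cells, reached 6357 CPM in other myeloid cells, and the part of both lists was not tested.

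Outside the cycle epithelial cells had more of 13 of 19 tested members than myeloid cells and less of 1 (33.4% and 35.9% of all genes). Hist1h2bc, at 217, 328, 170, 163, 203 and 239 CPM in the 6 libraries, was higher by 2.00 ± 0.124 (adjusted p = 6.31e-08, edgeR). It stood above the highest myeloid value in every library. Hist1h1e was higher by 2.09, Hist1h4h by 2.02, Hist1h2ac by 1.98, Hist1h4c by 1.82 and Hist1h1b by 1.75 (0.85 with stricter cell filters, adjusted p = 0.0992, edgeR), and Hist3h2a was lower (−1.16, adjusted p = 0.000316, edgeR). With no filter 19 of 64 were higher and 1 lower, against 21.0% and 26.7% of all genes.

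Cycling cells of each library were split at the median share of S-phase list UMIs among UMIs of the S-phase and G2/M lists, neither of which holds a histone gene. Cells at the median, and cells with no UMI of either list, were put in the G2M-rich part. The latter were 231 of 4476 cycling myeloid and 15 of 803 cycling T cells, and they are not in the bins of this share given further below. Of the lists that made the split, 11 of 25 S-phase genes were higher in S-rich myeloid cells (median log2 ratio 0.68). All 25 G2/M genes were lower there (median −2.07). In T cells 16 of 24 S-phase genes were higher (median 0.79) and 24 of 24 G2/M genes lower (median −1.90). The parts thus differed more in G2/M than in S-phase list genes, and S-rich does not mean that a cell was in S phase. The S-rich part of cycling myeloid cells had fewer histone UMIs in every library, 164, 167, 194, 331, 328 and 255 CPM against 747, 409, 368, 575, 669 and 368 CPM in the G2M-rich part. Of 19 tested members 13 were lower in S-rich cells and none higher (2.18% and 1.34% of all genes), with a median log2 ratio of −1.30. Hist1h2ab (−2.22), Hist1h3c (−1.82), Hist1h2ae (−1.65), Hist1h2ap (−1.64 ± 0.267, adjusted p = 0.00212), Hist1h1b (−1.55 ± 0.344, adjusted p = 0.0189, edgeR) and Hist1h1d (−1.49) were the lowest. With DESeq2 Hist1h1b (−1.89, adjusted p = 0.279), Hist1h2ae (−1.80, adjusted p = 0.206), Hist1h2ab (−2.40, adjusted p = 0.0644) and Hist1h2ap (−2.07, adjusted p = 0.0559) did not pass, nor did Hist1h1b without the GVHD library (−1.30, adjusted p = 0.0896, edgeR). Hist1h1c was lower too (−0.40, adjusted p = 0.00391, edgeR), and Hist3h2a did not pass (−0.02, adjusted p = 0.972, edgeR).

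In T cells of the 4 libraries with at least 20 cycling ones (GVHD, the macrophage library labelled IL34-/- and both T-cell libraries) the sums were 429, 878, 2387 and 1609 CPM in S-rich and 4760, 4307, 4760 and 3736 CPM in G2M-rich cells. There 16 of 21 tested members were lower in S-rich cells (2.90% of all genes) and none higher (1.23%). Hist1h2bc was the lowest at −3.04 ± 0.202 (adjusted p = 2.8e-09, edgeR), followed by Hist1h2ae (−1.54), Hist1h2ap (−1.53), Hist1h3c (−1.52), Hist1h3f (−1.501) and Hist1h2ab (−1.495). Of these Hist1h2ap (−2.37, adjusted p = 0.387) and Hist1h3f did not pass with DESeq2, nor Hist1h3c, Hist1h3f and Hist1h2ab with the stricter gate. The count rests on both T-cell libraries: 7 members passed without the one labelled IL34-/- and 9 without the WT one. With the shared barcodes kept the BM library entered this test too, and only 7 members passed the filter, against 21 above. All 7 were lower, and the share of all genes in that fit is not given here. With no filter 29 of 64 members were lower in S-rich myeloid cells and none higher, against 1.97% and 1.36% of all genes.

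Mki67 and Top2a differed across the same split. With libraries pooled and in bins of the S-phase share of 0 to 20, 20 to 40, 40 to 60, 60 to 80 and 80 to 100%, cycling myeloid cells had 429, 727, 483, 231 and 137 histone CPM, while Mki67 and Top2a together were at 639, 518, 381, 251 and 250 CPM. T cells had 3247, 4628, 4686, 3081 and 519 histone CPM, and Mki67 and Top2a at 1979, 1841, 1779, 1422 and 628 CPM. Epithelial cells had 1582, 1830, 1552, 1014 and 492 histone CPM. In these pooled values the highest histone level was at 20 to 60% and the lowest at 80 to 100% in all 3 gates. Single libraries departed from this, as in myeloid cells of the macrophage library labelled IL34-/-, which were highest at 0 to 20% (714 CPM). Mki67 and Top2a were lowest at 80 to 100% in T and epithelial cells. In pooled myeloid cells they were nearly equal in the last pair of bins, and lower at 60 to 80% in GVHD (181 against 203 CPM) and BM (193 against 199 CPM). Their part in the low histone level was not tested. Of the variants 5 of 9 were lower in S-rich cells of both gates, with Cenpa at −1.17 and −1.86, and of the processing genes none of 16 and 1 of 13 (Casp8ap2, 0.52 higher) passed.

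The mix of members differed between libraries in the same way in every gate. In cycling myeloid cells there were 0.911, 0.506, 2.26, 3.06, 1.88 and 0.181 Hist1h2ap UMIs per Hist1h1b UMI. The value of 0.181 (0.139 to 0.232) in the T-cell library labelled IL34-/- was the lowest, and that in the WT T-cell library was 1.88 (1.70 to 2.07). Cycling T cells had 0.644, 0.375, 2.39, 1.44 and 0.171 in the 5 libraries with at least 5 UMIs of both genes, and cycling epithelial cells 2.32, 3.04, 2.16 and 0.388 in the last 4 libraries. Hist1h2ae per Hist1h1b was likewise lowest in the T-cell library labelled IL34-/-, at 0.236, 0.218 and 0.354 in the 3 gates. Hist1h1e per Hist1h1b kept to 0.426 to 0.747 in cycling myeloid cells of all 6 libraries, but reached 1.19 in cycling epithelial cells of the T-cell library labelled IL34-/-. Hist1h4d, whose model also runs past the stem-loop, varied more. In cycling myeloid cells it stood at 0.824, 1.13, 0.636, 0.718, 0.491 and 0.296 per Hist1h1b, again lowest in the T-cell library labelled IL34-/-. Members whose model ends at the stem-loop made up 19.2%, 11.8%, 27.6%, 38.6%, 32.7% and 12.3% of histone UMIs in cycling myeloid cells. They made up 18.9% in T and 15.4% in epithelial cells of the T-cell library labelled IL34-/-, against 35.9% and 31.1% in the WT T-cell library. Hist1h2ap is among these members, so this share is not separate from its ratio. It gave 306, 221, 522, 834, 1176 and 75 of 3687, 7156, 3125, 3176, 5484 and 2447 histone UMIs in cycling myeloid cells. In cycling T cells it gave 2156 of 9595 in the WT T-cell library and 195 of 4395 in the one labelled IL34-/-. The part of the other members was not tested. Kit and library preparation cannot be told apart from the groups here.

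Across the 46 members with a stem-loop in the model, the number of A in the 12 bases before it and the mean level in cycling T cells had a Spearman's rho of 0.60, and of 0.67 across the 23 whose model ends at the stem-loop. This is a description over genes that share libraries and near-identical copies. The 5 members with 9 to 12 A, Hist1h2ap and Hist1h2ae among them, had a median of 45.7 CPM, the 16 with 7 to 8 had 27.0 and the 25 with 0 to 6 had 5.99 CPM. The spread within each group was wide, from 3.63 (Hist1h2ad) to 360 CPM (Hist1h2ap) in the first. Hist1h2ao, with the same 12 A as Hist1h2ap, was at 7.19 CPM. It had 7.2% of its 90-base stretches to itself, so how UMIs were split between such copies is uncertain.

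**Figure D5:**
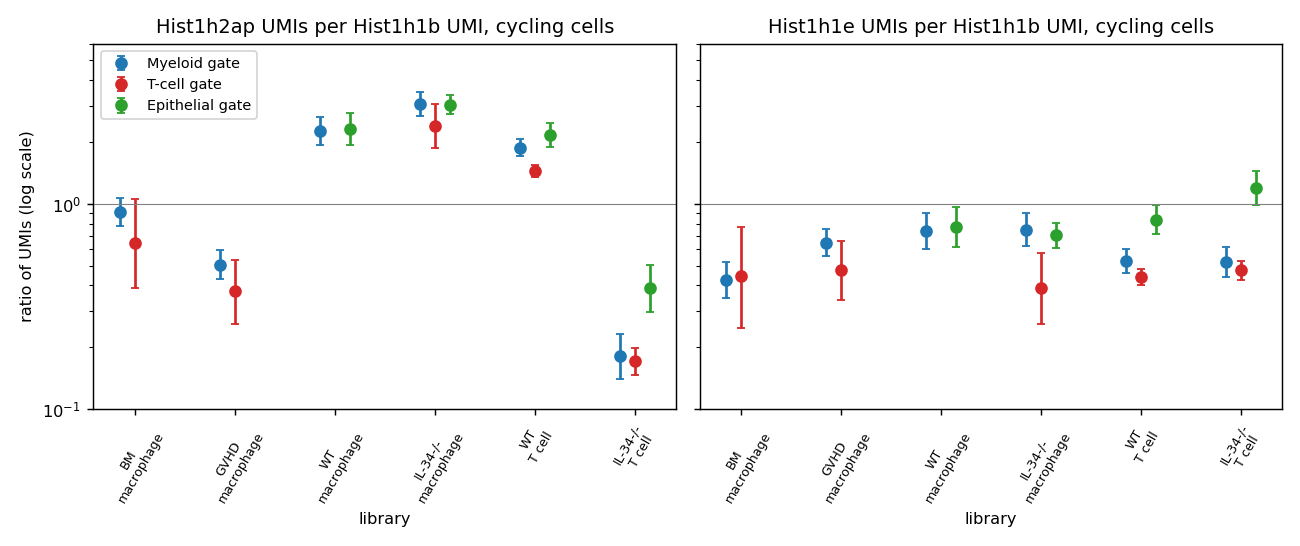
UMIs of Hist1h2ap (left) and Hist1h1e (right) per UMI of Hist1h1b in cycling cells of each library (log scale), by gate, with 95% binomial intervals that cover counting error only. The left values range from 0.171 to 3.06 and follow the library rather than the gate.

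Every ratio between groups below compares 1 library with 1 library, so there is no test and no replicate error, and each stands beside this difference in mix. A member counts as measured where either library has at least 5 CPM of it. GVHD against BM cycling myeloid cells had a ratio of the histone sum of 0.644 (0.619 to 0.670), and 0.642 with the shared BM barcodes kept. Other myeloid cells had 0.873 (0.830 to 0.918), where none of 6 measured members differed by 1.5-fold (17.8% of all genes higher, 20.8% lower). Of 13 members measured in cycling cells 9 were at least 1.5-fold lower in GVHD and none higher (17.8% and 12.1% of all genes). Hist1h2ap was at 0.240 times the BM level, Hist1h2ae at 0.224 and Hist1h1b at 0.432, while Hist1h2bc was at 1.06 (0.966 to 1.15) and Hist1h1c at 0.954 (0.860 to 1.06). Without Hist1h2ap and Hist1h2ae the ratio was 0.730. GVHD had the larger share of cycling myeloid cells, 44.4% against 20.9%, or 6.66% against 2.95% at 2000 UMIs per cell.

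The macrophage library labelled IL34-/- had more histone UMIs than the WT one in cycling myeloid cells, with a ratio of 1.62 (1.54 to 1.70), and 1.42 (1.34 to 1.51) without Hist1h2ap and Hist1h2ae. In other cells the ratio was 1.12 (1.06 to 1.19), and 2 of 8 measured members were at least 1.5-fold higher and none lower (1.67% and 2.17% of all genes). Of 14 measured members 10 were at least 1.5-fold higher and none lower (2.46% and 3.43% of all genes). Hist1h2ap was 2.54, Hist1h4d 2.12, Hist1h1e 1.90 and Hist1h1b 1.88 (1.57 to 2.25) times the WT level. Hist1h2bc was at 1.04 (0.887 to 1.21) and Hist1h1c at 0.819 (0.701 to 0.954). The cycling share was 21.5% against 26.1%, and this order turned over at 2000 UMIs per cell, with 4.46% against 4.30%.

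Myeloid cells of the T-cell libraries, a comparison added after the data were seen, went the other way. The library labelled IL34-/- had 0.598 (0.570 to 0.627) of the WT level in cycling and 1.11 (1.06 to 1.16) in other cells, and 6 of 15 measured members were at least 1.5-fold lower in cycling cells (1.72% of all genes) and none higher (1.62%). Hist1h2ap was at 0.0854 (0.0667 to 0.108) and Hist1h2ae at 0.208 of the WT level, and Hist1h1b at 0.887 (0.781 to 1.01). Without Hist1h2ap and Hist1h2ae the ratio was 0.829 (0.786 to 0.874). In other cells 1 of 4 measured members, Hist3h2a at 1.51, was at least 1.5-fold higher and none lower (1.09% and 0.540% of all genes).

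T-gated cells of the same libraries had a ratio of 0.740 (0.714 to 0.767) in the cycle and 0.945 (0.881 to 1.01) outside it. Without Hist1h2ap the cycling ratio was 0.912 (0.878 to 0.948), and without Hist1h2ap and Hist1h2ae 1.01 (0.969 to 1.05). Hist1h2ap was at 117 against 800 CPM, a ratio of 0.146 (0.126 to 0.169), and Hist1h2ae at 0.362, while Hist1h1b was at 1.23 (1.14 to 1.33), Hist1h1e at 1.33 (1.18 to 1.49) and Hist1h1c at 1.36 (1.16 to 1.58). Of 48 measured members 19 were at least 1.5-fold lower and 2 higher (5.38% and 7.62% of all genes). In other cells 4 of 15 were lower and 2 higher (3.03% and 4.0% of all genes). The cycling share was 16.9% against 18.4%.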

How the data were processed

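The authors deposited, for each of 6 single-cell libraries, a matrix of whole-number UMI counts per gene and barcode, made with Cell Ranger 7.0.1 on mm10 per the submitters' processing notes. Cells needed 500 detected genes and no more than 10% mitochondrial UMIs. Doublets were removed with Scrublet, by its automatic threshold where it marked at least 0.5% of barcodes (1164 and 564 barcodes in the T-cell libraries) and otherwise as the expected number at 0.8% per 1000 barcodes (90 to 463). Markers of the 3 gates and the rule for cycling cells are given above.

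Counts were summed per library, gate and class. Paired differences were tested with edgeR 4.0.16 (quasi-likelihood test, library as block, R 4.3.3) over all genes that passed filterByExpr with a minimum count of 10, with Benjamini-Hochberg adjustment and a threshold of 0.05, in libraries with at least 10 cells of both classes. The script was tested on simulated data. No label says that the libraries came from separate animals, so p-values measure the spread between these 6 libraries of different groups. Groups were compared as ratios with exact conditional binomial intervals of 95%, levels with Poisson intervals. Intervals and floors (3 counts) cover counting error only. Named were the 12 members with the highest mean level in each gate and class, in each test up to 6 highest and 6 lowest members past the threshold, and up to 4 genes of each other list. Transcript models came from GENCODE M21, where all 67 members were found. Members and lists were chosen with earlier results of these data known. Python 3.11.15 and scanpy 1.11.5 were used. Alternatives were another scaling, DESeq2 1.42.0, no filter, stricter cells (1000 genes, 5% mitochondrial), a stricter gate (4 markers), doublets kept, 1 or 4 Mki67 and Top2a UMIs, 2000 UMIs per cell, shared barcodes kept and each library left out.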

Additional observations from a re-analysis of the deposited data

Results flagged for a closer look

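A test of the difference itself, added after the data were seen, asked whether the log2 ratio of cycling to other cells differed between T and myeloid cells of the same 6 libraries (edgeR interaction term). Of 41 tested members 7 had a larger ratio in T cells and none a smaller one, where 2.77% of all genes tested were larger and 0.822% smaller. The differences were 2.07 for Hist2h2aa1 (adjusted p = 0.0155), 2.00 for Hist1h2bc (adjusted p = 4.27e-06), 1.85 for Hist1h4h (adjusted p = 0.0162) and 1.77 for Hist1h2be (adjusted p = 0.0235, edgeR). They were 1.57 for Hist3h2ba (adjusted p = 0.04), 1.55 for Hist3h2a (adjusted p = 0.00324) and 1.38 for Hist1h3e (adjusted p = 0.0467, edgeR). Hist1h1b, Hist1h2ap and Hist1h2ae, the 3 with the highest mean level in cycling T cells, were not among them, and Hist1h2bc, the highest in cycling myeloid cells, was. The count fell to 2 without the T-cell library labelled IL34-/-, 3 without the macrophage library labelled IL34-/- and 1 without the WT T-cell library.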

How the results depend on the processing

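None of the counts or group ratios given here changed direction, but the order of the cycling shares of the macrophage libraries labelled IL34-/- and WT did (21.5% against 26.1%, and 4.46% against 4.30% at 2000 UMIs). The T-cell cycling ratio of 0.740 became 1.01 without Hist1h2ap and Hist1h2ae. The shares and levels rest on 1 library per group. The filter asked for the level of 10 UMIs in a class sum of median size, and members below it in too many sums were left out of the filtered tests. Tests between classes of cells were paired by library, which was their block. The interaction test had library as an additive block only, without a pairing of classes within each gate. For the ratios between groups it was otherwise. No paired analysis was possible because each of these groups is 1 library, with no replicate numbers to pair.

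Counts of members that passed moved as follows. With no filter they were 42 (cycling myeloid, 22 in the fit above), 48 (cycling T, 9), 44 (cycling epithelial, 24), 49 (T over myeloid, cycling, 29), 4 lower (T against myeloid, other cells, 2), 29 (lower in S-rich myeloid, 13) and 25 of 60 (lower in S-rich T cells, 16, with the share of all genes not given). At 2000 UMIs per cell they were 9 of 12 tested and 0 lower in cycling myeloid, 6 of 8 in cycling epithelial, 11 of 12 for T over myeloid cycling cells, 11 for other cells (18 above) and 1 for the interaction. The stricter gate gave 14, 15 and 11 for cycling myeloid, T and epithelial cells, 11 for T over myeloid other cells, 7 for epithelial over myeloid cells (13 above) and 7 for S-rich T cells. With 4 Mki67 and Top2a UMIs the counts were 36 in myeloid and 25 in T cells, and 4 for the interaction. DESeq2 gave 8 and 10 lower in S-rich myeloid and T cells, stricter cells 14 for cycling epithelial cells, and keeping the shared barcodes 7 for S-rich T cells, with 24 for cycling myeloid and 14 for S-rich myeloid cells. Fewer genes or libraries could be tested at 2000 UMIs and with the stricter gate, and the cause of the other moves was not tested. Apart from the no-filter fits whose shares stand above, the share of all genes that passed in these fits is not given here. The number tested is given only where stated, so these counts cannot be set against all genes.

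With each library left out in turn, the counts ranged from 22 to 25 (cycling myeloid; 1 lower), 7 to 14 (cycling T), 23 to 28 (cycling epithelial), 24 to 39 (T over myeloid, cycling), 16 to 18 (other cells; 2 lower), 11 to 14 (epithelial over myeloid; 1 lower), 10 to 16 (S-rich myeloid), 7 to 20 (S-rich T) and 1 to 10 (interaction). The 14 came without the WT macrophage library. For fits with a library left out, the number tested and the share of all genes are not given, here or where such counts stand above.

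Ratios over all cells of a gate, cycling and other together, are given only here. For GVHD to BM myeloid cells this ratio was 0.889 with the settings used above. It was 0.972, 0.970 and 0.985 with TMM scaling, the stricter gate and 2000 UMIs. In cycling cells it was 0.714, 0.699, 0.741, 0.518 and 0.542 with TMM, the stricter gate, 1 UMI, 4 UMIs and 2000 UMIs per cell, and in other cells 0.942, 0.940 and 0.974 with TMM, the stricter gate and 2000 UMIs. The ratio of IL34-/- to WT macrophage libraries over all cells was 1.31 with the settings used above, and 1.46 and 1.23 with the stricter gate and 2000 UMIs. In cycling cells it was 2.00, 1.44, 1.76 and 1.75 with the stricter gate, 1 UMI, 4 UMIs and 2000 UMIs. In other cells it was 1.22 with the stricter gate. In T cells of the T-cell libraries the IL34-/- to WT ratio over all cells was 0.741 with the settings used above. It was 0.707, 0.710 and 0.769 with TMM, stricter cells and the stricter gate. In cycling T cells it was 0.701 with TMM, and in other T cells 0.831 at 2000 UMIs. In myeloid cells of the T-cell libraries it was 0.864 over all cells with the settings used above. At 2000 UMIs it was 0.901 over all and 1.02 in other cells. In cycling cells it was 0.523, 0.723 and 0.516 with the stricter gate, 1 UMI and 4 UMIs. Where a called member could be tested again under an alternative, its call held in 1959 cases and was lost in 109. Called members that the filter left out under an alternative are in neither number.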
